A study of Mus musculus with 8 samples.

Results

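The cadherin superfamily was examined in dorsal forebrain of mouse embryos at E12.5, in which the Hedgehog pathway regulator Sufu had been deleted or kept. Members were the protein-coding genes of the authors' table whose symbol named a numbered cadherin (Cdh), a protocadherin (Pcdh), a CELSR cadherin, a FAT cadherin or a Dachsous cadherin. The rule found 88 genes of 43629 gene IDs. Of these, 44 are clustered protocadherins on chromosome 18 and 44 lie outside the clusters. The RNA came from 4 Sufu-cKO samples of genotype Emx1-cre/+;Sufu-fl/fl and from 4 controls, given as Sufu-fl/fl or Sufu-fl/+, so every control carries floxed Sufu on 1 or both chromosomes. All 8 samples were from male embryos on a mixed background with C57BL/6J. Emx1-cre acts in progenitors of the dorsal telencephalon and the cells they give rise to, so vessels, meninges and blood cells in the tissue keep Sufu. The labels do not say which of the controls are heterozygous, nor which samples share an embryo or a litter, so a p-value here refers to the spread among these 8 samples, part of which may be technical. Their titles are Mut_295, Mut_317, Mut_337 and Mut_340 for Sufu-cKO and Cont_294, Cont_345, Cont_365 and Cont_370 for controls, and values are given in this order.

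Cadherins are calcium-dependent adhesion proteins that sit in the cell membrane and mostly bind the same cadherin on the neighbouring cell. Classical cadherins hold adherens junctions together through catenins, which link them to actin, and in the embryonic cortex such junctions join the progenitors at the ventricular surface. Protocadherins bind more weakly and have other cytoplasmic partners, the clustered ones give neurons a combinatorial surface identity, and the giant FAT, Dachsous and CELSR cadherins orient and size tissues.

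Total counts were 27514357 to 34878838 per sample. Levels are CPM, the count of a gene scaled to library size with TMM factors, averaged over the 4 samples of each genotype with the SD, and fold changes are Sufu-cKO over control. Sufu, the check of the genotype labels, had 44.8, 44.5, 37.4 and 35.9 CPM in the Sufu-cKO samples, against 106, 125, 112 and 105 CPM in controls, and its log2 fold change was −1.46 (edgeR adjusted p = 1.07e-06). The 8 listed markers of dorsal telencephalic progenitors, among them Emx1, were all detected, and 5 were called lower and 1 higher in Sufu-cKO. Mut_337 stood apart, with 1673 summed CPM of the 10 markers of meninges and mesenchyme, against 763 to 799 CPM in Mut_295, Mut_317 and Mut_340 and 958 to 1027 CPM in controls. None of these 10 genes was at 0 in every sample, and none passed the test between genotypes. Of the other marker lists, 1 of 7 pericyte markers and 4 of 10 microglia markers fell. Of 8 Cajal-Retzius markers, 1 rose and 1 fell, and the 8 erythroid markers had negative log2 fold changes but were not called. Of 9 tested ventral or GABAergic markers, 8 had positive log2 fold changes, with a median of 1.28, and 1 was called higher. The 10 listed summed to 78.4 to 270.0 CPM in Sufu-cKO and 44.7 to 152 CPM in controls, with overlap. The part of these markers in the members' values was not tested. In bulk RNA, fewer cells of a type and less RNA per cell cannot be told apart.

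A low-count filter left 77 of the 88 members to test. Cdh15, Cdh16, Cdh17, Cdh19, Cdh26, Dchs2, Fat2, Pcdha4, Pcdha8, Pcdhb1 and Pcdhb12 did not pass it. Cdh17 (liver-intestine cadherin), the most counted of these in controls, had 5, 5, 4 and 5 counts in the Sufu-cKO samples and 9, 6, 15 and 12 counts in controls, with no overlap between the groups. At an adjusted p under 0.05 from edgeR's quasi-likelihood test over all genes, 6 members were higher in Sufu-cKO, 6 were lower and 65 were not called. The 12 called are 15.6% of the tested members, and 11.0% of all 15382 tested genes were called, 5.34% higher and 5.64% lower. Counts of called genes per structural class, given below, are read beside this 11.0%. The 6 higher were Cdh4, Cdh7, Cdh12, Cdh20, Pcdh8 and Pcdh10, and the 6 lower were Cdh5, Pcdh7, Pcdh17, Pcdh19, Pcdh15 and Fat3. All 12 lie outside the clusters, where they are 32.4% of 37 tested genes, and edgeR called 0 of 40 tested clustered genes (3 had an unadjusted p under 0.05, and DESeq2 and limma-voom also called 0). Clustered genes were mostly scarcer than the called genes, which makes a call harder. Pcdha7, at 0.824 CPM in Sufu-cKO and 0.434 CPM in controls, was not called at a log2 fold change of 0.92 (edgeR adjusted p = 0.0691). The median log2 fold change was −0.04 over the tested members and 0.01 over all tested genes. Of the 12, Cdh20, Cdh4, Pcdh8 and Pcdh15 differed by at least 2-fold, 5.19% of the tested members, against 2.80% of all tested genes. The authors' deposited table gives 12 members a false discovery rate under 0.05, and they are the same 12.

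**Figure D1:**
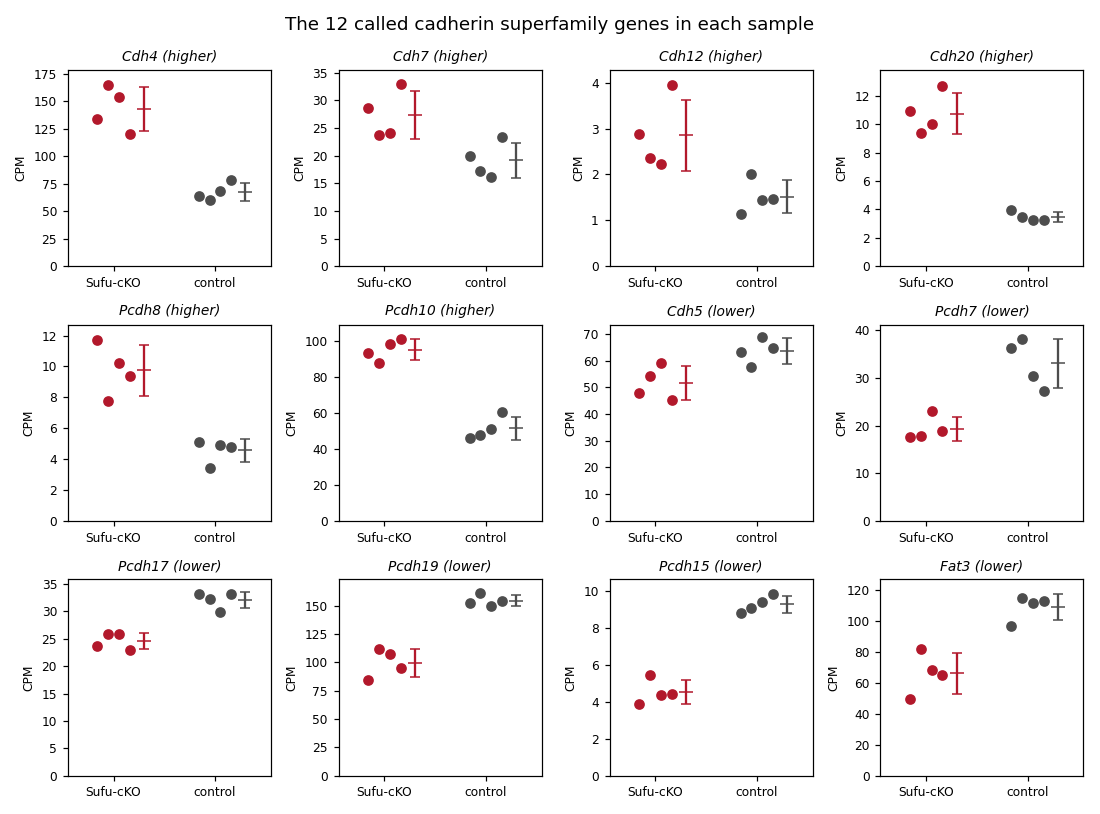
CPM of each of the 12 called genes in the 4 Sufu-cKO samples (left, red) and the 4 control samples (right, grey), with the mean and SD beside the points. The groups are separate in 11 panels and overlap for Cdh5, where the highest Sufu-cKO sample at 59.1 CPM lies above the lowest control at 57.4 CPM.

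The promoters of 5 called genes are printed because they show what genes called in opposite directions hold just before their start: Pcdh10, Pcdh8 and Cdh20 were higher in Sufu-cKO, and Pcdh17 and Pcdh19 were lower. Each is the 250 bases before the gene's start in RefSeq, GRCm38.p6, 5′ to 3′ on the gene's strand. They lie at chr3:45378148-45378397 (plus) for Pcdh10, chr14:79771313-79771562 (minus) for Pcdh8, chr1:104768270-104768519 (plus) for Cdh20, chr14:84443313-84443562 (plus) for Pcdh17 and chrX:133688994-133689243 (minus) for Pcdh19. Capitals mark each CCAAT box (CCAAT or its complement ATTGG) and, in Pcdh10, the 9 letters TGGGTGGTG.
Pcdh10: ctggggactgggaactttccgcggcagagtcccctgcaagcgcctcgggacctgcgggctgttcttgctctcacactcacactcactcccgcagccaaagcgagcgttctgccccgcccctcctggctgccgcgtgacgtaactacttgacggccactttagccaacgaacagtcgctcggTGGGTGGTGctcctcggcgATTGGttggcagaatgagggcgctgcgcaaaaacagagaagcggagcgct
Pcdh8: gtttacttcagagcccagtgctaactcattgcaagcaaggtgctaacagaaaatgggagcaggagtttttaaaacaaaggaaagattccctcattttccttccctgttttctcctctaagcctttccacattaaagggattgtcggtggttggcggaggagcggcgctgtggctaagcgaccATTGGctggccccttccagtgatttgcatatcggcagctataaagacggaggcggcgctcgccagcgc
Cdh20: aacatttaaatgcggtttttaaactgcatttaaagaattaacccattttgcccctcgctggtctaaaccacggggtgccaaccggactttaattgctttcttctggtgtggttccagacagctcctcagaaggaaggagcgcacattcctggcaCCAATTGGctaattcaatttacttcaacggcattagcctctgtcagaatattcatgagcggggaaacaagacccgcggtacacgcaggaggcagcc
Pcdh17: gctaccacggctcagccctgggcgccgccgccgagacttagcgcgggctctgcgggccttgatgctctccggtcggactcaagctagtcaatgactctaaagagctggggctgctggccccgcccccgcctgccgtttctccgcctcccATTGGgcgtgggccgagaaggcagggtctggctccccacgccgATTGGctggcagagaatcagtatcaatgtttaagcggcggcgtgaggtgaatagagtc
Pcdh19: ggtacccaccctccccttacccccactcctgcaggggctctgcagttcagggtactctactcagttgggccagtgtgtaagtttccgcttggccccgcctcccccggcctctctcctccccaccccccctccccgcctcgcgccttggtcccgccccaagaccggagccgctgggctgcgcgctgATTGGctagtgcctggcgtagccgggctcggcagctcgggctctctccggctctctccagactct

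GLI proteins, the transcription factors that Sufu holds in check, bind a sequence with the core GACCACCCA. Both strands of every RefSeq promoter were searched for these 9 letters. The exact letters stood in 74 of 32851 promoters (0.225%) and in 0 of 32 member promoters, which belong to 29 of the 88 members. With up to 1 mismatch they stood in 1903 promoters (5.79%) and in 1 member promoter (3.12%). That promoter is Pcdh10, where the printed plus strand holds TGGGTGGTG 69 to 61 bases before the start. These letters match TGGGTGGTC, the complement of the core, with 1 mismatch, so the core reads on the minus strand. A CCAAT box, a common promoter element, was looked for after these sequences had been read. It stood in all 5 printed promoters. The windows of the called genes Cdh12 and Pcdh7, which were not printed, held 0 boxes, so the 5 do not stand for all called genes. The box stood in 7 of 12 promoters of called members (58.3%), in 15 of 32 member promoters (46.9%) and in 11120 of all promoters (33.8%). The 5 printed promoters, read before the box was chosen, are counted in both the 7 and the 15. These shares therefore cannot be read against the 33.8%. The 12 promoters of called members belong to 10 genes, with Cdh7 counted more than once. The Pcdh15 and Fat3 promoters among them lie 722525 and 123823 bases from the deposited gene start, and 1 Cdh7 promoter lies 1292 bases from it. In the printed promoters the box nearest to the start began 50 bases before it in Pcdh10, 68 in Pcdh8, 93 in Cdh20, 58 in Pcdh17 and 65 in Pcdh19. A match of letters is a description of the window and not a binding site. The promoter table holds none of the clustered genes.

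Levels between genes are compared per kilobase of exon, with exons shared between genes included in the length. Median length was 5339.5 bases for alpha and 4808 for gamma members, of which a median of 2409 and 2618 bases were unshared. For beta members both medians were 3714 bases. If reads in shared exons were not counted, the levels, ranks and shares of alpha and gamma members are too low. The rule for counting such reads is not stated. Pcdha4, with 494 of 5768 exon bases unshared, had 0 counts in all samples but Mut_317, which had 2. Few if any reads in shared exons were thus counted for Pcdha4. Cdh2, N-cadherin, the main classical cadherin of neural progenitors, led in both genotypes at 59.4 ± 1.94 CPM per kb in Sufu-cKO and 53.8 ± 4.08 CPM per kb in controls. It made up 20.4% of the members' summed level per length in Sufu-cKO and 19.4% in controls. Behind it in controls came Celsr1 (23.3 CPM per kb in Sufu-cKO and 20.8 in controls), Pcdh18 (15.8 and 18.0), Dchs1 (15.2 and 17.9) and Celsr2 (19.2 and 17.9), and in controls the samples of neighbours in this order overlapped. Cdh4 stood at rank 3 in Sufu-cKO and rank 11 in controls, with 19.7 CPM per kb in Sufu-cKO and 9.32 in controls. Cdh20 stood at rank 19 in Sufu-cKO and 38 in controls, and Pcdh8 at 22 in Sufu-cKO and 35 in controls. Pcdh19 stood at rank 11 in Sufu-cKO and 7 in controls, and Pcdh7 at 25 in Sufu-cKO and 17 in controls. The members' median coefficient of variation was 17.5% among Sufu-cKO samples and 15.4% among controls, against 10.4% and 8.36% over all tested genes in the same 2 groups. Low counts add to this spread, and many clustered members were scarce. In the same order of groups, scarce Pcdhb11 had 52.4% and 34.7%, and abundant Cdh2 had 3.27% and 7.60%. Celsr1, also abundant, had 23.5% and 20.6%.

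**Figure D2:**
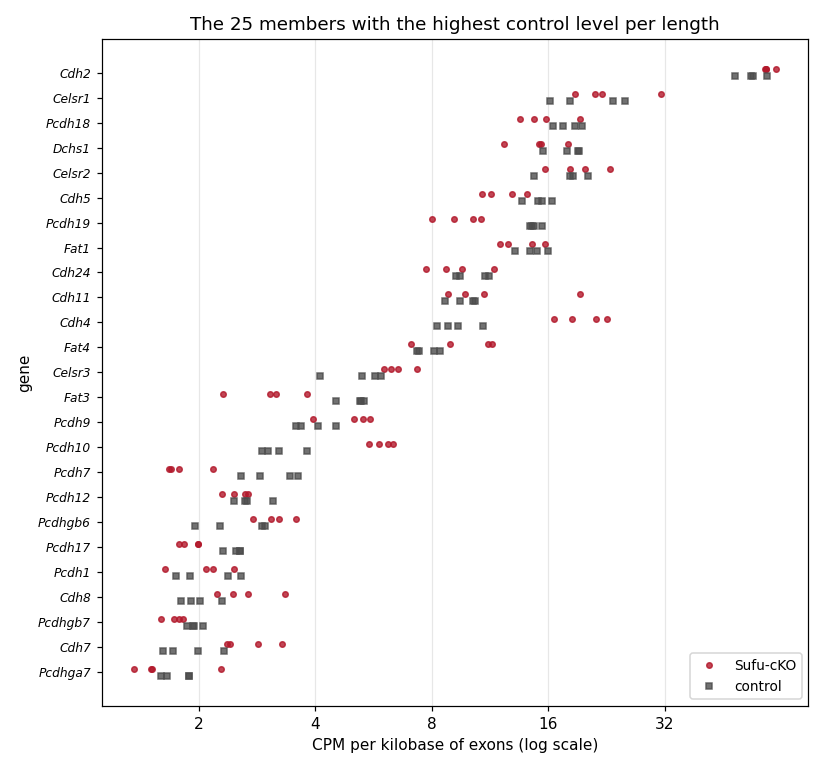
Level of the 25 members with the highest control level per length, in CPM per kilobase of exon on a log axis, 1 point per sample (red circles, Sufu-cKO; grey squares, control). Cdh2 lies at the top near 59.4 CPM per kb in Sufu-cKO and 53.8 in controls, and Cdh4, Pcdh10, Pcdh19, Pcdh7, Fat3 and Pcdh17 are among the rows whose groups do not overlap.

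Among type I classical cadherins, Cdh4 was the called gene of 4 tested. Cdh4 (R-cadherin, ENSMUSG00000000305, chr2:179442431-179899373) binds itself and also N-cadherin. It had 134, 165, 154 and 120.2 CPM in the Sufu-cKO samples, against 63.8, 60.0, 68.0 and 78.8 CPM in controls. Every Sufu-cKO sample lay above every control, and the means were 143 ± 20.2 CPM in Sufu-cKO and 67.6 ± 8.12 CPM in controls (SD, n = 4 each). The log2 fold change was 1.08 (95% interval 0.84 to 1.33; edgeR adjusted p = 1.27e-04), a 2.12-fold higher level. Cdh2, the most abundant member, had 471, 473, 469.5 and 502 CPM in the Sufu-cKO samples, against 474, 431, 393 and 437 CPM in controls. These groups overlapped at the first control, and the log2 fold change of 0.14 (95% interval 0.01 to 0.28) was not called (edgeR adjusted p = 0.181).

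Cdh3 (P-cadherin), found in several epithelia, had 0.828, 0.845, 5.33 and 0.646 CPM in the Sufu-cKO samples, against 3.50, 2.88, 3.70 and 2.48 CPM in controls. The highest value was that of Mut_337, and the other 3 Sufu-cKO samples lay below all controls. With all samples the log2 fold change was −0.69 (95% interval −2.26 to 0.87; edgeR adjusted p = 0.633), and without Mut_337 it was −2.03 (edgeR adjusted p = 2.37e-04). In Mut_337 the summed level of 8 surface ectoderm markers was 11.96 CPM, against 5.91 to 8.08 CPM in the 3 remaining Sufu-cKO samples and 7.85 to 8.75 CPM in controls. The 8 markers of choroid plexus epithelium, the tissue that makes cerebrospinal fluid, summed to 70.6 to 261 CPM in Sufu-cKO and 483 to 768 CPM in controls, and 6 of them fell. None of either list was at 0 in every sample, and their part in the Cdh3 values was not tested.

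The type II cadherins, which mark nuclei, layers and fibre tracts of the brain in many combinations, held 3 of the 6 higher genes. Of 12 tested, 3 were higher, 1 was lower and 8 were not called, against 11.0% called over all tested genes. Their median log2 fold change was 0.32. Cdh20 (ENSMUSG00000050840, chr1:104768529-104995481), a type II cadherin of the developing nervous system, had 10.9, 9.36, 10.0 and 12.7 CPM in the Sufu-cKO samples, against 3.98, 3.43, 3.25 and 3.25 CPM in controls. The lowest Sufu-cKO sample was above the highest control by more than the whole range of either group. With means of 10.8 ± 1.46 CPM in Sufu-cKO and 3.48 ± 0.345 CPM in controls, its log2 fold change of 1.63 (95% interval 1.33 to 1.93) was the largest of any tested member (edgeR adjusted p = 1.36e-05).

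Cdh7 (ENSMUSG00000026312, chr1:109982431-110140157), a type II cadherin of neurons and neural crest, had 28.6, 23.7, 24.1 and 33.0 CPM in the Sufu-cKO samples, against 19.9, 17.2, 16.2 and 23.3 CPM in controls. The groups did not overlap, but the lowest Sufu-cKO sample was close to the highest control. The means were 27.3 ± 4.38 CPM in Sufu-cKO and 19.1 ± 3.17 CPM in controls, with a log2 fold change of 0.51 (95% interval 0.22 to 0.81; edgeR adjusted p = 0.0313). The call was lost without Mut_295 or Mut_340 (edgeR adjusted p = 0.0650 and 0.0813) and without Cont_294, Cont_345 or Cont_365 (edgeR adjusted p = 0.0634, 0.0992 and 0.0957). Cdh12 (ENSMUSG00000040452, chr15:21111452-21589533), called brain cadherin, was the scarcest called gene of this class per length, with 2.88, 2.36, 2.23 and 3.94 CPM in the Sufu-cKO samples and 1.13, 2.01, 1.45 and 1.47 CPM in controls. Its groups did not overlap, its means were 2.85 ± 0.779 CPM in Sufu-cKO and 1.51 ± 0.362 CPM in controls, and its log2 fold change was 0.91 (95% interval 0.40 to 1.43; edgeR adjusted p = 0.0277). That call was lost without Mut_340 (edgeR adjusted p = 0.0801) and without Cont_294, Cont_365 or Cont_370 (edgeR adjusted p = 0.0822, 0.0779 and 0.0637).

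Cdh5 (VE-cadherin, ENSMUSG00000031871, chr8:104101625-104144502), which joins endothelial cells of blood vessels, was the type II gene called lower. It had 47.8, 54.2, 59.1 and 45.4 CPM in the Sufu-cKO samples, against 63.2, 57.4, 68.8 and 64.8 CPM in controls. The groups overlapped at Mut_337, the means were 51.6 ± 6.22 CPM in Sufu-cKO and 63.6 ± 4.71 CPM in controls, and the log2 fold change was −0.30 (95% interval −0.49 to −0.11; edgeR adjusted p = 0.0472). The call was lost without Mut_295, Mut_317 or Mut_340 (edgeR adjusted p = 0.100, 0.0704 and 0.0965) and without Cont_294, Cont_365 or Cont_370 (edgeR adjusted p = 0.0935, 0.138 and 0.0976). All 12 endothelial markers had negative log2 fold changes, with a median of −0.28, and 2 of them fell, Kdr and Ramp2. Their summed level was 261 to 305 CPM in Sufu-cKO and 307 to 349 CPM in controls, none was at 0 in every sample, and their part in the Cdh5 difference was not tested. Pcdh12, the protocadherin of endothelium and trophoblast, was not called at a log2 fold change of −0.11 (edgeR adjusted p = 0.578).

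Cdh11 (osteoblast cadherin), a cadherin of mesenchyme and neurons, had 78.5, 86.9, 172 and 97.1 CPM in the Sufu-cKO samples, against 84.3, 77.1, 91.0 and 91.9 CPM in controls. Sample Mut_337, the sample with the highest meninges and mesenchyme markers, held the value of 172 CPM, and the other 7 samples overlapped. The log2 fold change was 0.34 with all samples (edgeR adjusted p = 0.506) and 0.01 without Mut_337 (edgeR adjusted p = 0.959). Pcdh18, a delta-2 protocadherin, had 72.6, 84.7, 104 and 78.8 CPM in the Sufu-cKO samples, against 105, 88.2, 93.8 and 100.4 CPM in controls, and again Mut_337 was the highest of its group. Its log2 fold change was −0.19 with all samples (edgeR adjusted p = 0.321) and −0.31 without Mut_337 (edgeR adjusted p = 0.0312). The part of the mesenchymal markers in these values was not tested. Cdh24, another abundant type II cadherin, was not called at a log2 fold change of −0.12 (edgeR adjusted p = 0.623).

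**Figure D3:**
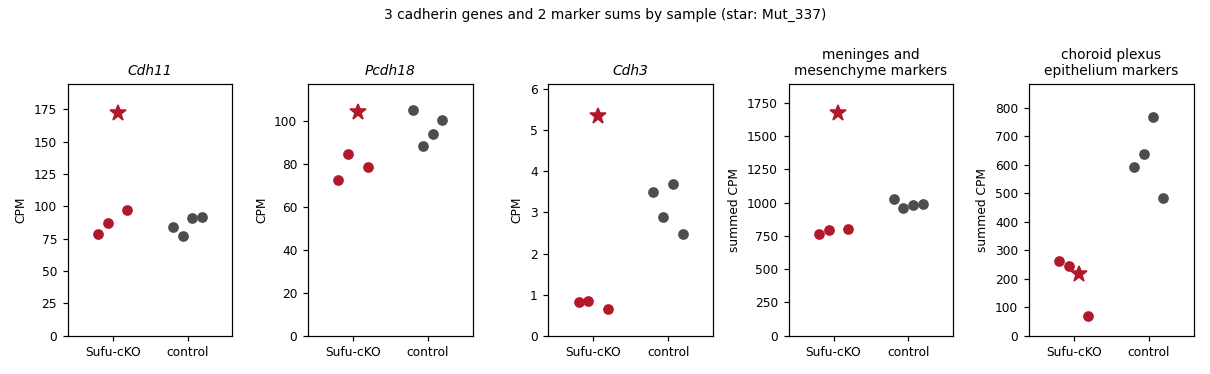
CPM of Cdh11, Pcdh18 and Cdh3, and summed CPM of the markers of meninges and mesenchyme and of choroid plexus epithelium, in Sufu-cKO (left, red) and control (right, grey) samples, with a star for Mut_337. The star is the highest Sufu-cKO point for the 3 genes and for the mesenchymal sum of 1673 CPM, and lies among the other Sufu-cKO points, at 217 CPM, for the choroid plexus sum.

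The delta-2 protocadherins, which carry short conserved cytoplasmic motifs and sort neurons and their axons, had 4 of 5 members called, 2 in each direction. Over all tested genes the called share was 11.0%, and a class of 5 is small. Pcdh10 (OL-protocadherin, ENSMUSG00000049100, chr3:45378398-45435623), which in mouse guides axons of the ventral forebrain, had 93.0, 87.6, 98.2 and 101 CPM in the Sufu-cKO samples, against 46.2, 47.8, 51.2 and 60.6 CPM in controls. All Sufu-cKO samples were well above all controls, and the means of 94.9 ± 5.88 CPM in Sufu-cKO and 51.4 ± 6.45 CPM in controls gave a log2 fold change of 0.88 (95% interval 0.70 to 1.07; edgeR adjusted p = 3.99e-05). This is the gene whose promoter, printed above, holds the near match to the GLI core, as do 5.79% of all promoters. Pcdh8 (arcadlin, ENSMUSG00000036422, chr14:79766775-79771312), which in rat neurons takes N-cadherin from the surface, had 11.7, 7.74, 10.2 and 9.40 CPM in the Sufu-cKO samples, against 5.11, 3.46, 4.93 and 4.80 CPM in controls. Its groups were separate, with means of 9.77 ± 1.66 CPM in Sufu-cKO and 4.58 ± 0.752 CPM in controls and a log2 fold change of 1.09 (95% interval 0.74 to 1.45; edgeR adjusted p = 0.00105).

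The other two called delta-2 genes went the other way. Pcdh19 (ENSMUSG00000051323, chrX:133582860-133688987), an X-linked protocadherin that acts with N-cadherin and is mutated in a human epilepsy, had 84.0, 112, 107 and 95.3 CPM in the Sufu-cKO samples, against 152, 161, 149.9 and 154 CPM in controls. The controls were tightly grouped and all above the Sufu-cKO samples. The means were 99.6 ± 12.4 CPM in Sufu-cKO and 154 ± 4.88 CPM in controls, a log2 fold change of −0.63 (95% interval −0.81 to −0.46; edgeR adjusted p = 3.36e-04). Pcdh17 (ENSMUSG00000035566, chr14:84443563-84537060), which in mouse recruits the WAVE complex at contacts between axons, had 23.7, 25.9, 25.8 and 23.0 CPM in the Sufu-cKO samples, against 33.1, 32.3, 29.9 and 33.1 CPM in controls. Both groups were narrow and did not overlap, with means of 24.6 ± 1.47 CPM in Sufu-cKO and 32.1 ± 1.50 CPM in controls and a log2 fold change of −0.38 (95% interval −0.54 to −0.23; edgeR adjusted p = 0.00490).

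The delta-1 protocadherins have a longer cytoplasmic tail, and 1 of 4 was called. Pcdh7 (ENSMUSG00000029108, chr5:57718021-58133234), an adhesion protein whose Xenopus counterpart, NF-protocadherin, acts in retinal axons and neural tube folding, had 17.7, 17.9, 23.1 and 18.8 CPM in the Sufu-cKO samples, against 36.4, 38.2, 30.5 and 27.2 CPM in controls. The groups were separate, with means of 19.4 ± 2.51 CPM in Sufu-cKO and 33.1 ± 5.10 CPM in controls and a log2 fold change of −0.77 (95% interval −1.04 to −0.50; edgeR adjusted p = 0.00161). Pcdh9, expressed in cortical neurons, was at 33.6 ± 4.81 CPM in Sufu-cKO and 26.8 ± 2.89 CPM in controls and was not called (log2 fold change 0.33; edgeR adjusted p = 0.0888), but without Mut_295 it was (log2 fold change 0.42; edgeR adjusted p = 0.0123). Pcdh1 was at 18.4 ± 3.05 CPM in Sufu-cKO and 18.9 ± 3.44 CPM in controls and was not called (edgeR adjusted p = 0.916).

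Pcdh15 (ENSMUSG00000052613, chr10:73099342-74649737) and Cdh23 form the tip links of hair cells in the inner ear, where each binds the other. Pcdh15 had 3.91, 5.46, 4.40 and 4.46 CPM in the Sufu-cKO samples, against 8.82, 9.08, 9.41 and 9.85 CPM in controls. Every Sufu-cKO sample was far below every control, and the means of 4.55 ± 0.650 CPM in Sufu-cKO and 9.29 ± 0.449 CPM in controls gave a log2 fold change of −1.03 (95% interval −1.31 to −0.75; edgeR adjusted p = 3.17e-04). Its partner Cdh23 was scarce, at 0.596, 0.246, 0.205 and 0.452 CPM in the Sufu-cKO samples and 0.480, 0.510, 0.379 and 1.19 CPM in controls. Its groups overlapped and it was not called (log2 fold change −0.79; edgeR adjusted p = 0.335), and without Cont_370, the highest sample, the log2 fold change was −0.29 (edgeR adjusted p = 0.762). Cdh13 (T-cadherin), which is tethered by a lipid anchor and has no cytoplasmic tail, was at 18.2 ± 3.01 CPM in Sufu-cKO and 17.8 ± 6.34 CPM in controls (edgeR adjusted p = 0.964). Pcdh20 was not called at a log2 fold change of 0.33 (edgeR adjusted p = 0.275).

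Of the FAT and Dachsous cadherins, 1 of 4 tested was called. Fat3 (ENSMUSG00000074505, chr9:15910205-16378231), which shapes the dendrites of retinal neurons in mouse, had 49.6, 81.7, 68.1 and 65.4 CPM in the Sufu-cKO samples, against 96.9, 115, 112 and 113 CPM in controls. The groups were separate, with means of 66.2 ± 13.2 CPM in Sufu-cKO and 109 ± 8.27 CPM in controls and a log2 fold change of −0.72 (95% interval −1.01 to −0.43; edgeR adjusted p = 0.00588). Fat4 and Dchs1 bind each other and in mouse restrain the growth of the cortical progenitor pool. Fat4 had 121, 197, 192 and 153 CPM in the Sufu-cKO samples, against 127, 139, 144 and 126 CPM in controls, so that 3 Sufu-cKO samples were above all controls and Mut_295 below them. It was not called with all samples (log2 fold change 0.31; edgeR adjusted p = 0.245), and was called without Mut_295 (log2 fold change 0.43; edgeR adjusted p = 0.0142). Dchs1 had 169, 199, 167 and 136 CPM in the Sufu-cKO samples, against 171, 211, 213 and 198 CPM in controls, with overlap, and was not called (log2 fold change −0.24; edgeR adjusted p = 0.224). Fat1, which acts at cell junctions and in neural tube closure, was not called (log2 fold change −0.09; edgeR adjusted p = 0.630).

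The CELSR cadherins are the vertebrate Flamingo proteins of planar cell polarity, and 0 of 3 were called by edgeR, with 1 at an unadjusted p under 0.05. Celsr3, which in mouse is needed for the axon tracts of the forebrain, had 75.5, 88.4, 79.0 and 72.4 CPM in the Sufu-cKO samples, against 49.7, 63.6, 71.3 and 68.8 CPM in controls. The groups did not overlap, with the lowest Sufu-cKO sample just above the highest control, and the log2 fold change was 0.31 (edgeR adjusted p = 0.0903). DESeq2 called it at an adjusted p of 0.0459, and limma-voom called 0 of the 3. Celsr1 was at 257 ± 60.2 CPM in Sufu-cKO and 229 ± 47.1 CPM in controls (edgeR adjusted p = 0.707), and Celsr2 at 222 ± 35.5 CPM in Sufu-cKO and 206 ± 26.8 CPM in controls (edgeR adjusted p = 0.713). Counted by groups that did not overlap, 14 of the 77 tested members were separate (18.2%), 7 higher and 7 lower, against 16.2% of all tested genes.

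**Figure D4:**
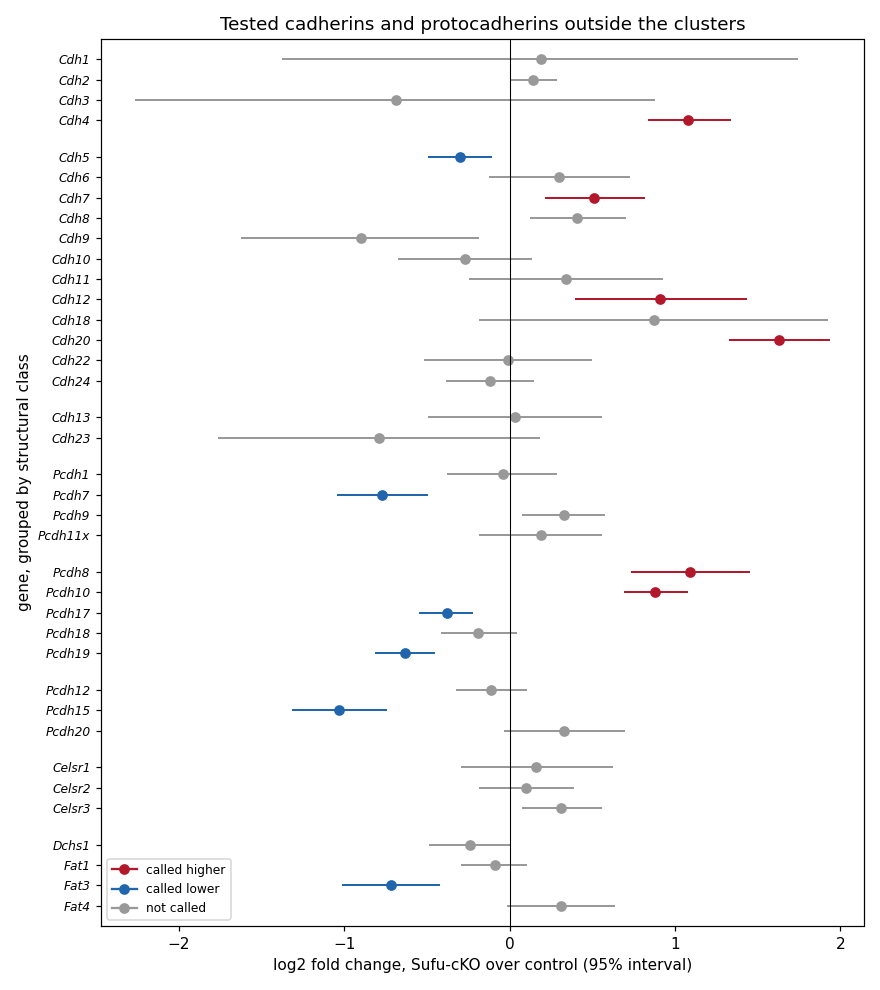
Log2 fold change of Sufu-cKO over control with its 95% interval for the 37 tested genes outside the clusters, grouped by structural class. Red marks the 6 genes called higher, blue the 6 called lower and grey those not called, and the values run from −1.03 (Pcdh15) to 1.63 (Cdh20).

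The clustered protocadherins stand in 3 tandem arrays on chromosome 18. Each neuron uses a few of them through a choice among promoters, and the genes of the alpha array, like those of the gamma array, splice their own first exon to shared last exons. Of the 8 alpha, 22 beta and 14 gamma members, 6, 20 and 14 were tested. The median log2 fold change was 0.53 over the alpha genes (range −0.14 to 0.92), −0.20 over the beta genes (−0.53 to 0.23, negative in 16 of 20) and −0.05 over the gamma genes (−0.44 to 0.32). The groups did not overlap for 2 of the 40 (5.00%), against 16.2% of all tested genes, and the scatter of low counts makes overlap likelier. These were Pcdhga1 and Pcdhgb7, both lower in Sufu-cKO and neither called. Pcdhga1, named after its values were seen, had 1.72, 2.08, 1.96 and 2.13 CPM in the Sufu-cKO samples and 2.37, 3.17, 2.27 and 2.88 CPM in controls. Pcdhgb7 had 8.37, 7.50, 8.12 and 8.59 CPM in the Sufu-cKO samples, against 9.67, 8.75, 9.13 and 9.12 CPM in controls (edgeR adjusted p = 0.371).

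Among the members by the table's symbols, the leading genes by control level per length were Pcdhgb6, Pcdhgb7 and Pcdhga7 of the gamma array, Pcdhb7, Pcdhb17 and Pcdhb20 of the beta array and Pcdha5, Pcdha10 and Pcdha9 of the alpha array. Pcdhgb6, the first of these, was at 14.8 ± 1.59 CPM in Sufu-cKO and 11.8 ± 2.31 CPM in controls and was not called (log2 fold change 0.32; edgeR adjusted p = 0.196). Pcdhb7 was at 3.07 ± 0.949 CPM in Sufu-cKO and 4.17 ± 0.402 CPM in controls (log2 fold change −0.44; edgeR adjusted p = 0.243). Summed over the 8 alpha members, the level was 4.04, 3.10, 4.10 and 4.39 CPM in the Sufu-cKO samples, against 2.74, 2.77, 2.69 and 2.96 CPM in controls. These sums were higher in all 4 Sufu-cKO samples than in any control, at a ratio of 1.40, and rested on 76 to 140 counts per sample. The 22 beta members summed to 32.7 ± 2.92 CPM in Sufu-cKO and 38.2 ± 4.47 CPM in controls, a ratio of 0.857 with overlapping groups. The 14 gamma members summed to 80.1 ± 4.82 CPM in Sufu-cKO and 80.2 ± 5.21 CPM in controls, a ratio of 0.998. No test was run on sums.

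The symbols of the authors' table leave out part of these arrays. GENCODE M21 gives the names of 13 further cluster genes, 6 alpha and 7 gamma, which the table lists under other symbols, in capitals. Of 12 tested, 2 were higher in Sufu-cKO and 0 were lower, against 11.0% called over all tested genes. Both called genes belong to the C type, and their promoters stand at the end of the alpha array. Pcdhac2 (ENSMUSG00000102697) had 9.96, 9.71, 8.85 and 10.8 CPM in the Sufu-cKO samples, against 6.55, 4.81, 6.13 and 6.07 CPM in controls (log2 fold change 0.74; edgeR adjusted p = 0.00276). Pcdhac1 (ENSMUSG00000103255) had 2.09, 2.92, 2.05 and 3.55 CPM in the Sufu-cKO samples, against 1.41, 1.24, 0.885 and 1.13 CPM in controls (log2 fold change 1.19; edgeR adjusted p = 0.00676). For each of these genes the Sufu-cKO samples were all above the controls. Pcdhgc3 (ENSMUSG00000102918), a C-type gene of the gamma array, had a higher level per length than any clustered member, at 11.7 CPM per kb in Sufu-cKO and 12.6 CPM per kb in controls, against 3.16 in Sufu-cKO and 2.52 in controls for Pcdhgb6. It was not called (log2 fold change −0.10; edgeR adjusted p = 0.515). With the added genes, the 14 alpha genes summed to 18.6 ± 1.47 CPM in Sufu-cKO and 11.96 ± 0.783 CPM in controls, a ratio of 1.56, and the 21 gamma genes to 177 ± 5.17 CPM in Sufu-cKO and 180.0 ± 7.85 CPM in controls, a ratio of 0.983. Genes of 1 array share exons. Pcdha4 has 494 exon bases of 5768 that no other gene shares and had 0 counts in all samples but 1. Pcdhac2, of the same array, had 132 to 335 counts per sample. Few if any reads in shared exons were thus counted for Pcdha4, and the sums of the alpha and gamma genes may leave such reads out.

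**Figure D5:**
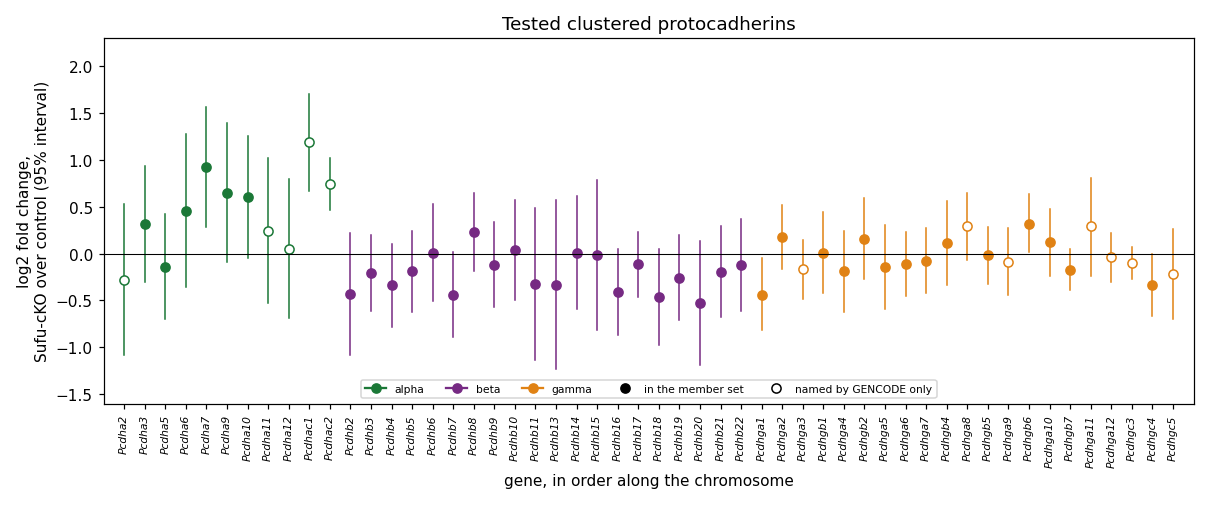
Log2 fold change of Sufu-cKO over control with its 95% interval for tested clustered protocadherins in chromosomal order, in green for alpha, purple for beta and orange for gamma. Filled points are members by the table's symbols and open points are genes that GENCODE M21 names, and among the open ones Pcdhac1 (1.19) and Pcdhac2 (0.74) are the 2 called higher.

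Partners of the cadherins were read from 8 gene lists, each beside the background of 11.0%. Of 16 tested catenins and junction partners, 4 rose and 0 fell, with a median log2 fold change of 0.04. Ctnnd2 (delta-catenin, which binds the cadherin tail in neurons) was at 91.4 ± 5.90 CPM in Sufu-cKO and 69.7 ± 4.53 CPM in controls (log2 fold change 0.39; edgeR adjusted p = 0.00270). Pvrl1 (nectin-1, an adhesion protein that recruits afadin to junctions) was at 57.0 ± 6.45 CPM in Sufu-cKO and 41.8 ± 2.77 CPM in controls (log2 fold change 0.44; edgeR adjusted p = 0.00580). Ctnna2 (the neuronal alpha-catenin that links cadherins to actin) and Ctnnb1 (beta-catenin) rose by less, with log2 fold changes of 0.29 and 0.21 (edgeR adjusted p = 0.0231 and 0.0324). For all 4 the groups did not overlap. The 8 markers of intermediate progenitors and cortical neurons summed to 2141 to 2343 CPM in Sufu-cKO and 1743 to 2027 CPM in controls, with 2 higher (Dcx and Tbr1), 0 lower and none at 0 in every sample, and their part in these values was not tested. The count of 4 became 2 without Mut_337 or Mut_340 or without Cont_294 or Cont_345: each of these ended the Ctnna2 call, at edgeR adjusted p of 0.0713, 0.0558, 0.0737 and 0.0830. The Ctnnb1 call was also lost without any sample but Mut_295, at edgeR adjusted p of 0.0513 to 0.0860.

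Of 17 partners of Fat and Dachsous in the Hippo growth pathway, 0 rose and 5 fell, and the median log2 fold change was −0.20. Lix1, a relative of the fly protein Lowfat that binds Fat and Dachsous, was at 56.3 ± 4.97 CPM in Sufu-cKO and 87.0 ± 1.57 CPM in controls (log2 fold change −0.63; edgeR adjusted p = 8.52e-05). Fjx1, the vertebrate relative of the fly kinase Four-jointed that modifies Fat and Dachsous, was at 45.1 ± 5.23 CPM in Sufu-cKO and 59.2 ± 5.61 CPM in controls (log2 fold change −0.39; edgeR adjusted p = 0.0167). Tead2, a transcription factor at the end of the pathway, and Lix1l had log2 fold changes of −0.27 and −0.23 (edgeR adjusted p = 0.00726 and 0.0210). The fifth, named after its values were seen, was Yap1, the co-activator that TEAD factors use (log2 fold change −0.22; edgeR adjusted p = 0.0274). The count became 3 without Cont_294, Cont_345 or Cont_365, because the Yap1 and Lix1l calls were both lost without each of these. For Lix1l the edgeR adjusted p was then 0.0679, 0.0504 and 0.0541. The Lix1l call was also lost without Mut_317 (edgeR adjusted p = 0.0628). The dorsal progenitor markers summed to 1287 to 1517 CPM in Sufu-cKO and 1637 to 1882 CPM in controls, with 5 of 8 lower, 1 higher and none at 0 in every sample, and their part in these values was not tested.

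Of 13 genes of core planar cell polarity, 1 was called: Prickle1, with 6.49 ± 1.23 CPM in Sufu-cKO and 9.33 ± 1.35 CPM in controls (log2 fold change −0.52; edgeR adjusted p = 0.0495). Its groups overlapped, and the call was lost without Mut_295, Mut_317 or Mut_340 (edgeR adjusted p = 0.0962, 0.132 and 0.111) and without Cont_294, Cont_345 or Cont_365 (edgeR adjusted p = 0.0759, 0.122 and 0.149). The count for this list was 0 without Mut_295 or Mut_340 or any of those 3 controls, and 2 without control 370. Of 6 tested cadherin-related genes and calsyntenins, 1 rose, Clstn2 (calsyntenin 2, a synaptic cadherin relative), at 10.4 ± 0.140 CPM in Sufu-cKO and 6.15 ± 0.511 CPM in controls (log2 fold change 0.75; edgeR adjusted p = 7.62e-04), and without Cont_370 the count was 2. Of 9 desmosomal cadherins, 1 was tested, with an unadjusted p under 0.05, and 0 were called by edgeR, DESeq2 or limma-voom.

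In the WAVE complex, an actin regulator that several protocadherins bind, 1 of 11 rose and 1 fell. Cyfip2, a subunit through which Rac acts on the complex, was at 252 ± 10.1 CPM in Sufu-cKO and 166 ± 8.54 CPM in controls (log2 fold change 0.61; edgeR adjusted p = 2.16e-05). Wasf3, one of the subunits that stimulate actin branching, was at 44.3 ± 1.96 CPM in Sufu-cKO and 51.8 ± 2.57 CPM in controls (log2 fold change −0.22; edgeR adjusted p = 0.0360). The Wasf3 call was lost, and the count of the list became 1, without Mut_317 or Mut_337 (edgeR adjusted p = 0.116 and 0.0711) and without Cont_294, Cont_345 or Cont_365 (edgeR adjusted p = 0.0635, 0.133 and 0.0684). Without Mut_295 the count was 4. Among 13 proteases that cut cadherins or process their precursors, Pcsk5, a proprotein convertase, rose to 24.5 ± 4.10 CPM in Sufu-cKO, against 13.5 ± 1.02 CPM in controls (log2 fold change 0.86; edgeR adjusted p = 5.27e-04). Its relative Pcsk6 fell to 18.0 ± 3.45 CPM in Sufu-cKO, against 34.6 ± 2.44 CPM in controls (log2 fold change −0.94; edgeR adjusted p = 4.35e-04). Aph1b, a gamma-secretase subunit with a near-identical copy in the mouse genome, fell to 20.3 ± 1.79 CPM in Sufu-cKO, against 33.1 ± 2.56 CPM in controls (log2 fold change −0.71; edgeR adjusted p = 2.37e-04), and how reads were split between the copies is uncertain. Of 14 regulators of clustered protocadherin choice, such as CTCF and cohesin, edgeR called 0, DESeq2 and limma-voom called 0, and 4 had an unadjusted p under 0.05. Without Mut_295, 3 were called.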

How the data were processed

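Total RNA was purified with Qiagen RNeasy columns and made into stranded mRNA libraries with an Illumina TruSeq kit, per the labels' protocols. Reads were aligned with STAR 2.4.2a to GRCm38, per the submitters' processing notes. How reads were counted, with which strand setting and annotation release, is not given in the sources used here. Tested were the raw counts per gene that the authors deposited. They also deposited a normalised signal per gene and sample, a count divided by 1 factor per sample (used only as a check, with which the counts agree to a relative spread of 9.8e-10), and their own fold change (a ratio) with a p-value and false discovery rate per gene. There, 1 gene ID had become a spreadsheet formula and was restored. Value columns without a sample numbered 0.

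Groups and sample numbers were taken from the labels. Sample pairs within a group differed by far more than sampling noise (chi-square test), so each was counted once. The test was edgeR 4.0.16 in R 4.3.3: filterByExpr (minimum count 10, minimum total 15) left 15382 of 25299 genes with any count, libraries were scaled with TMM factors, and genotypes were compared by a robust quasi-likelihood F-test, 2-sided, with Benjamini-Hochberg adjustment over all tested genes. A gene was called under 0.05. The biological coefficient of variation was 12.8%. Intervals cover 95%. Levels per kilobase divide CPM by the exon length in GENCODE M21. The test was checked on simulated counts. Alternatives were DESeq2 1.42.0, voom from limma 3.58.1, other scalings and filters, and leaving out each sample.

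Members and lists were chosen with earlier results of these data known. Named are all called members, the 3 with the highest level per length in each of 11 classes and up to 4 called genes per partner list with the smallest p. The lists of markers number 11. Proteins were not analysed here.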

Additional observations from a re-analysis of the deposited data

Results flagged for a closer look

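Among 76 sets of 4 samples examined, 1 sample lay far from the other 3 in 3 sets, and chance alone gives about 1 in 20. Mut_340 had 502 CPM of Cdh2, against 469.5 to 473 CPM in the other Sufu-cKO samples. Mut_337 had 5.33 CPM of Cdh3, against 0.646 to 0.845 CPM in the other Sufu-cKO samples. Cont_370 had 1.19 CPM of Cdh23, against 0.379 to 0.510 CPM in the other controls. Without Mut_340 the log2 fold change of Cdh2 was 0.11 (edgeR adjusted p = 0.321), without Mut_337 that of Cdh3 was −2.03 (edgeR adjusted p = 2.37e-04), and without Cont_370 that of Cdh23 was −0.29 (edgeR adjusted p = 0.762).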

How the results depend on the processing

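Of the 12 called members, 9 kept their call and direction in all 8 fits that left out 1 sample and under all 8 other settings, the exceptions being Cdh5, Cdh7 and Cdh12. Cdh5 was also lost with library totals as scale (adjusted p = 0.0502), with limma-voom (0.0520) and with edgeR without robust estimation (0.0551). No direction of a called gene turned. Leaving out 1 sample, the count over all genes ranged from 1079 (without Cont_345) to 1836, members higher from 4 to 8 and members lower from 5 to 8, catenins from 2 to 6, cadherin-related genes from 1 to 2, planar polarity from 0 to 2, Fat and Dachsous partners from 3 to 6, cluster regulators from 0 to 3, the WAVE complex from 1 to 4. Planar polarity called 0 with DESeq2 size factors, library totals, limma-voom or non-robust edgeR, 2 with no low-count filter and 3 with DESeq2. Cadherin-related genes called 2 with DESeq2 and with limma-voom, and the WAVE complex 1 with no filter. DESeq2 called 8 members higher, adding Cdh8 (seen afterwards) and Celsr3. Counting the cluster genes that GENCODE names, an alternative chosen after seeing the data, also gave 8 higher. The log2 ratios of cluster sums ranged from 0.42 to 0.58 for alpha, −0.28 to −0.16 for beta and −0.04 to 0.04 for gamma. The cause of these changes was not tested. No paired analysis was possible because the groups share no sample numbers in the labels. Low counts limit the precision for the 8 alpha members and for the 11 members that did not pass the filter. The same holds for scarce beta members, such as Pcdhb13 with 5 to 18 counts per sample and Pcdhb15 with 10 to 22.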
